A study of Mus musculus with 9 samples.

Results

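CTCF binding was examined across the Myc locus and the gene desert around it, a window of 2.3 Mb on mouse chromosome 15 (chr15:61000000-63300000, mm9). Peaks from 8 CUT&RUN libraries of CD8+ T cells were merged into 1 region wherever they overlapped by at least 1 bp, and every region that overlapped the window was taken. This rule of position gave 27 of the 39574 regions of the genome. The window itself was picked with earlier results of these data known. Distances are counted from the Myc position of 61.82 Mb, which is rounded to 10 kb, to the median summit of a region. Sites "before" Myc have lower coordinates than this position and sites "after" Myc have higher ones. For the sites 1, 3 and 5 kb before it, the offset is within about the size of the rounding. Whether they lie before the start of the gene or inside it cannot be told here. Distances between sites come from the deposited summits and do not carry that rounding.

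Myc encodes a basic helix-loop-helix transcription factor that drives cell growth and division, and T cells induce it when cytokine or antigen signals start them growing. Pvt1, a long noncoding RNA gene, is its next neighbour. The surrounding desert holds few protein-coding genes but is known for enhancers that act on Myc over long distances, in T cell precursors among other blood cells. CTCF is a zinc-finger protein that halts cohesin on DNA and so anchors chromatin loops, and a CTCF site close to the Myc promoter is known as a docking point for distant enhancers. In the RefSeq order of genes on GRCm38.p6, used here for order only, A1bg is the last protein-coding gene before Myc and Gsdmc the next one after it, with Pvt1 directly after Myc. The build of the peaks is another one, so no site is assigned here to an exon or intron of Myc or Pvt1.

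The 4 groups of 2 CTCF libraries each were DKO cells (genotype Tcf1-/-Lef1-/-) after 72 h of culture with IL-7 and IL-15, WT cells after 72 h of the same culture, DKO cells at 0 h and WT cells at 0 h. Mice of both genotypes carried hCD2-Cre, a transgene that drives Cre recombinase from the human CD2 promoter in lymphocytes, and the Cre reporter Rosa26-lsl-GFP. DKO mice were floxed for both Tcf1 and Lef1, which encode a pair of related HMG-box factors of the T cell lineage. Naive cells had been sorted from spleen as GFP+ TCRbeta+ CD62Lhi CD44lo-med CD8+, loss of Tcf1 and Lef1 cannot be read from peak lists, and the animals' ages were not stated. The antibody control was a single IgG library from WT cells at 0 h, whose list held 5 peaks, 0 of them in the window. The labels do not say whether replicates are from different animals, and p-values here measure only the spread between these libraries, which may be technical.

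The deposited lists held 10339 and 16234 peaks in DKO cells at 72 h, 17335 and 26630 in WT cells at 72 h, 30309 and 31392 in DKO cells at 0 h, and 32585 and 30967 in WT cells at 0 h, on chromosomes 1 to 19 and X. The number of reads behind each list is unknown here. Each list starts at a fold of 4, where fold is the authors' enrichment of a peak over its local background, so an absent peak means that none was listed above that level. A fold belongs to its own list, and folds of different lists are set side by side as a description only.

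With the lists as deposited, sites found only after culture made up a larger share of this window than of the genome. In WT cells, 6 of the 27 regions (22.2%) had a peak in both libraries at 72 h and in neither at 0 h, where 0.576% of all regions did (228 of 39574). On the rest of chromosome 15 there were 10 such regions among 1711. In DKO cells the same held for 3 of the 27 regions (11.1%), against 0.116% of all regions (46 of 39574). A peak in all 4 libraries at 72 h and in none at 0 h was found at 2 regions of the window, at 31 regions of the genome (0.0783%) and at 0 regions on the rest of chromosome 15. Counting a peak in any library, 7 regions of the window (25.9%) had peaks at 72 h and none at 0 h, against 1189 of all 39574 regions, 9 (33.3%) had peaks at 0 h and none at 72 h, against 33.2%, and 11 (40.7%) had peaks at both times, against 63.8%. Lists cut to the same 10339 strongest peaks left 11 regions in the window. Of these, 1 was found only at 72 h in WT cells, where 4.92% of all regions were, and 2 in DKO cells, where 4.98% were. With peaks of −log10 q of at least 5, 5 of 26 regions were found only at 72 h in WT cells, against 0.598% of all regions, and 1 of 26 in DKO cells, against 0.0917%.

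**Figure D1:**
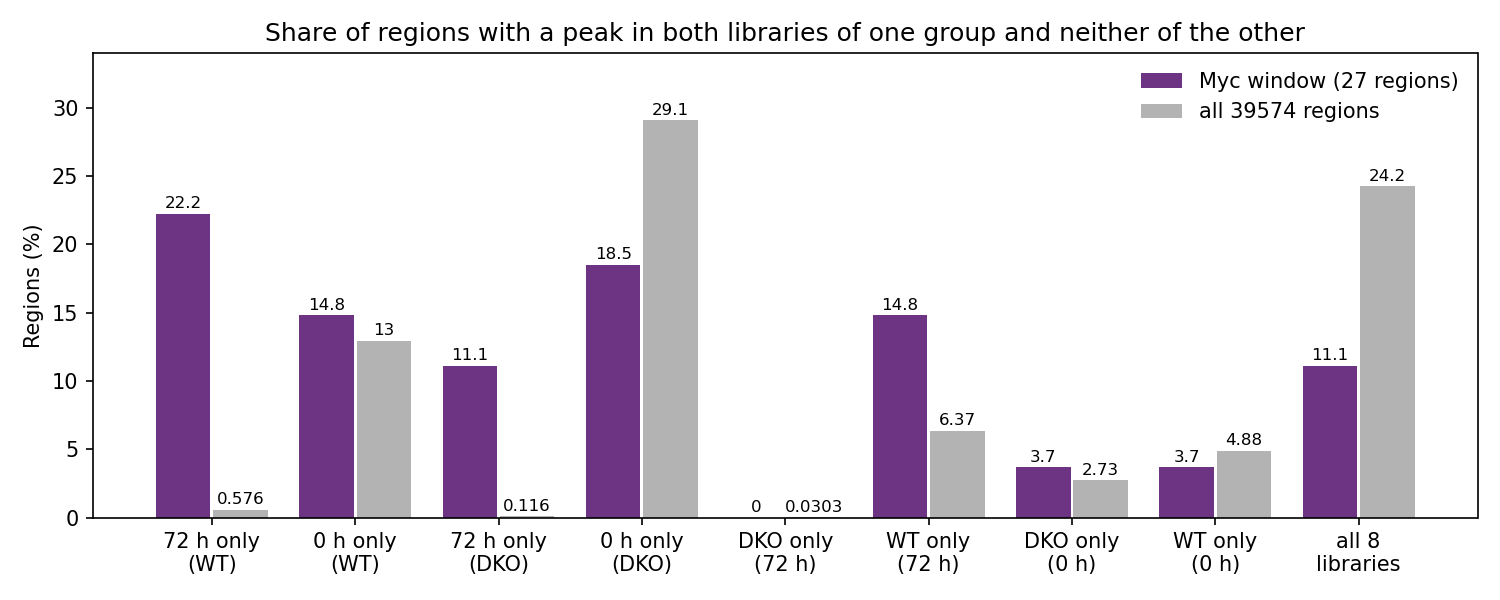
Share of regions (%, y axis) with a peak in both libraries of a named group and in neither of the group it was compared with, or in all 8 libraries, for the 27 regions of the Myc window (purple, left bars) and all 39574 regions (grey, right bars). With the lists as deposited, the shares found only at 72 h are 22.2% in WT and 11.1% in DKO cells in the window, against 0.576% and 0.116% over all regions. With lists of equal length, not drawn, they are 1 and 2 of 11 regions, against 4.92% and 4.98%.

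By median fold over the libraries that held it, the leading site found only after culture was chr15:61239614-61240510, 580 kb before Myc and 897 bp wide. Its peaks had a fold of 5.12 and 11.4 in DKO cells at 72 h and of 13.1 and 14.2 in WT cells at 72 h, and no library at 0 h listed a peak there. All 4 libraries of cultured cells thus held it and none of the naive cells did, and both WT values lay above both DKO values. By the authors' p-value it was at the 31.0th and 77.1st percentile of all peaks in the DKO lists at 72 h and at the 85.7th and 83.9th in the WT lists at 72 h. No peak number was missing between the listed neighbours of this site in any 0 h list. A missing number was read as a peak that was called but not listed. No source states how the lists were filtered, so this reading is unverified. Over the window, 108 pairs of a region and a library had no listed peak, and in 27 of them a number was missing between the listed neighbours. A two-sided Fisher's exact test of presence, 4 libraries at 72 h against 4 at 0 h, gave p = 0.0286 for this site, the smallest p possible, and an adjusted p of 0.376 after Benjamini-Hochberg adjustment over 39574 regions. By that test 3004 regions of the genome had an unadjusted p under 0.05 and 0 an adjusted one.

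The second site of all 4 cultured libraries was the last region of the window, chr15:62655215-62656942, 836 kb after Myc. It had a fold of 4.20 and 6.64 in DKO cells at 72 h and of 5.35 and 13.9 in WT cells at 72 h, with no peak at 0 h (Fisher's exact test, p = 0.0286, adjusted p = 0.376). The DKO values started just above the listing limit. In WT replicate 2 at 72 h the site was a single peak of 1662 bp, whereas WT replicate 1 listed 2 separate peaks that this wide peak joined. The higher of them (fold 5.35) had its summit about 1 kb from the DKO summits, and the other (fold 4.22) lay at those summits. The site no longer counted as found only at 72 h, in either genotype, with a −log10 q of at least 5 or with lists of equal length. In WT replicate 2 at 0 h, 1 peak number was missing somewhere between the listed neighbours of this site, so an unlisted peak cannot be told apart from none there.

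A second, weaker peak after culture lay 3.33 kb beyond the leading site, at chr15:61243198-61243708, 577 kb before Myc. Here DKO replicate 2 at 72 h had a fold of 4.61, DKO replicate 1 had no peak, and the WT libraries at 72 h had 7.61 and 8.32. The site chr15:61273248-61273653, 547 kb before Myc, was listed in WT cells at 72 h only, with a fold of 6.39 and 7.32. In WT replicate 1 at 0 h, 1 peak number was missing between its listed neighbours. An unlisted peak cannot be told apart from none there. The summit of this site was 1.80 kb from that of a site found in all 8 libraries. Both of these sites thus lay near stronger peaks in the same stretch of DNA.

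After Myc, chr15:62562076-62562425 (742 kb) had a fold of 6.29 in DKO replicate 2 at 72 h and of 9.39 and 10.6 in WT cells at 72 h. At 0 h it was listed in DKO replicate 2 alone, at a fold of 4.32, which is close to the limit. In WT cells it therefore counted as found only at 72 h, while in DKO cells each time had 1 library with a peak. Between the listed neighbours of this site 1 peak number was missing in DKO replicate 1 at 72 h and 1 in WT replicate 2 at 0 h. The site chr15:61502078-61502444, 318 kb before Myc, was the third found only at 72 h in DKO cells. Its fold was 5.46 and 7.86 in DKO cells at 72 h and 5.14 in WT replicate 1 at 72 h, and no peak was listed in the other libraries. In WT replicate 2 at 72 h, 1 peak number was missing in the long stretch around this site.

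**Figure D2:**
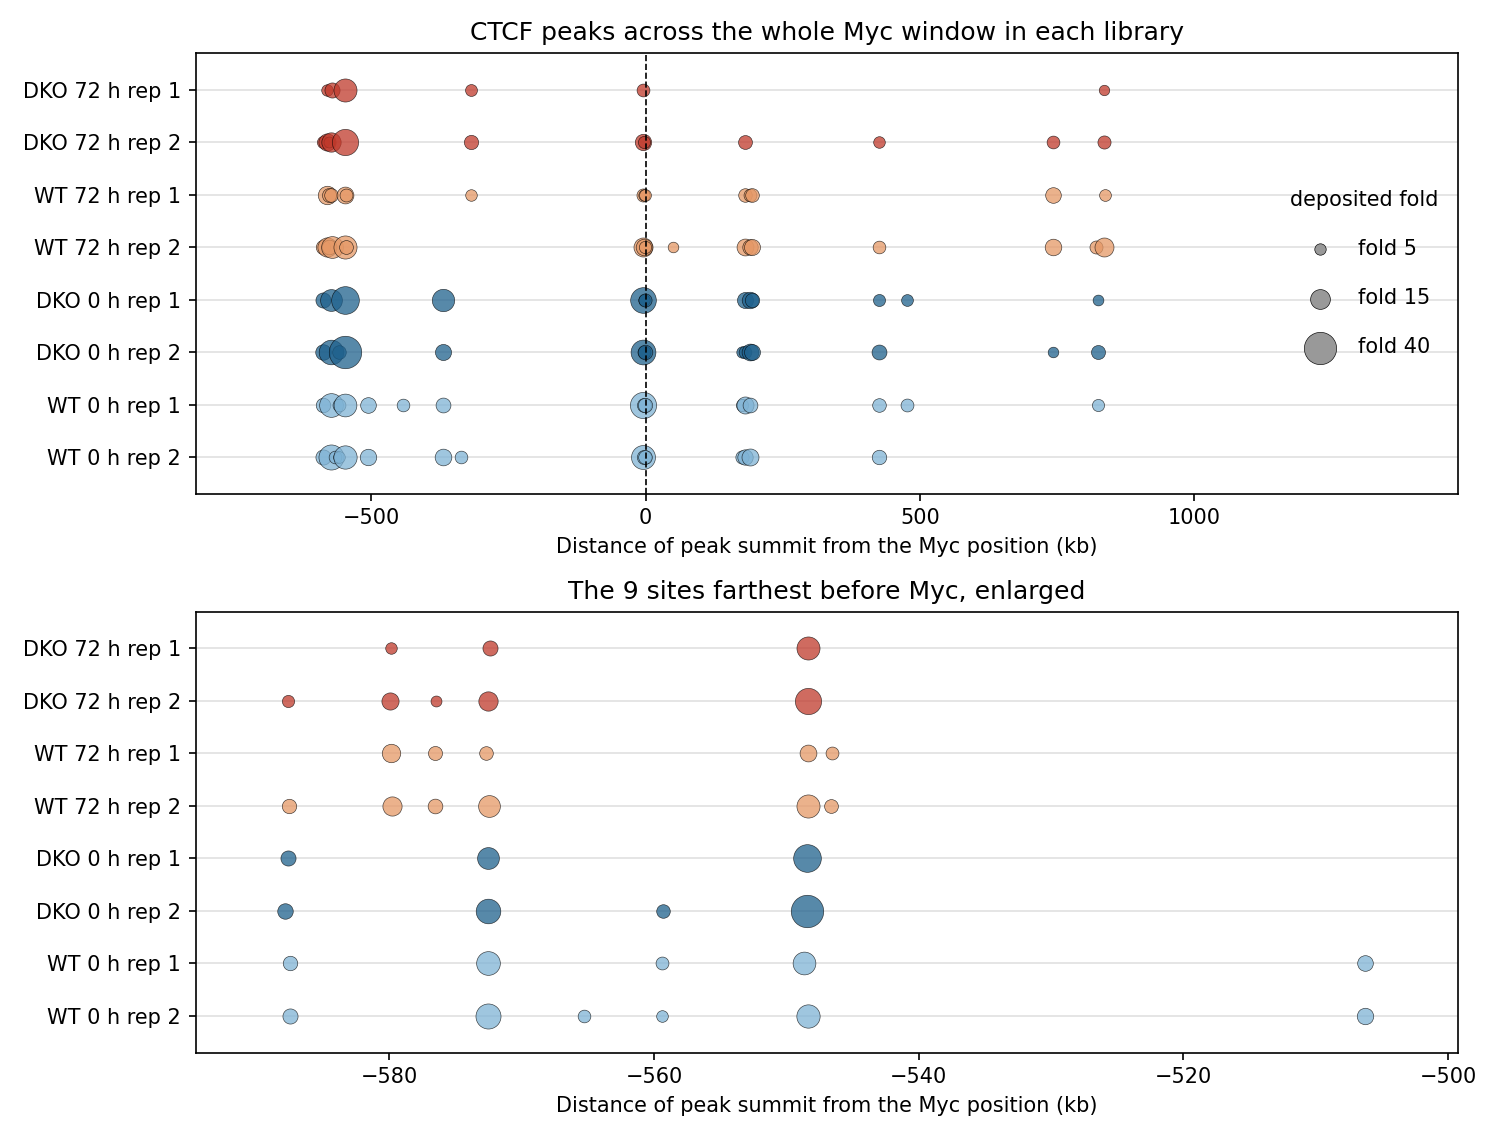
Summit of the highest-fold peak of each region and library in the Myc window, by distance from the Myc position (x axis, kb). Rows are libraries, DKO above WT within each time and 72 h above 0 h. The whole window is at the top and the 9 sites farthest before Myc are enlarged at the bottom. The area of a circle is proportional to the deposited fold and the dashed line marks the Myc position. The lower peak (fold 4.22) of WT replicate 1 at 72 h in the site 836 kb after Myc is not drawn. The column of circles 580 kb before Myc is present in the 4 libraries at 72 h and missing in the 4 at 0 h, and no library has a peak beyond the site 836 kb after Myc.

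Sites were bunched, with long empty stretches between them. Neighbours within 50 kb formed 5 groups that held 22 of the 27 regions, and 5 regions stood alone. The median gap between neighbouring regions was 10.1 kb in the window and 15.2 kb over the genome, so gaps under 50 kb were common elsewhere too. The share of regions grouped in this way over the genome was not counted, so the grouping is not read as particular to this window. The largest group had 9 regions in 81.9 kb, between 588 and 506 kb before Myc. In it 3 regions had peaks at 72 h but none at 0 h, 3 had peaks at 0 h but none at 72 h, and 3 had peaks at both times. A group of 3 regions in 4.67 kb lay at Myc itself, and a group of 4 regions in 17.2 kb lay 176 to 193 kb after it, on the Pvt1 side.

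The longest gaps between regions of the window were 312 kb between the upstream sites and those at Myc, and 265 kb and 232 kb on the far side. Gaps at least as long as these made up 3.29%, 3.85% and 4.39% of all 39554 gaps between neighbouring regions of the genome. Before the first region no peak was listed for 242 kb, so the start of the window was empty over 232 kb. After the last region no peak was listed for 776 kb, a gap matched or exceeded by 1.28% of gaps, so the end of the window was empty over 643 kb. The window held 11.7 regions per Mb, against 17.3 on chromosome 15 and 15.4 over the genome.

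Few of these sites were shared by all libraries. Only 3 of the 27 regions (11.1%) had a peak in all 8 libraries, against 24.2% of all regions, and 5 had a peak in a single library, 18.5% against 14.7%. All 5 single-library peaks were in WT lists, 3 at 0 h with a fold of 6.18 to 6.19 and 2 in WT replicate 2 at 72 h with 4.33 and 6.54. Of the 3, the peaks were 565, 442 and 337 kb before Myc, and of the 2, they were 51 and 821 kb after it. The count of regions in every library became 5 without DKO replicate 1 at 72 h, the shortest list.

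The site 5 kb before the Myc position was the shared site nearest the gene. At chr15:61814476-61815485 the fold was 6.34 and 10.3 in DKO cells at 72 h, 6.56 and 13.9 in WT cells at 72 h, 25.3 and 23.7 in DKO cells at 0 h, and 26.3 and 22.1 in WT cells at 0 h. Every library at 72 h was below every library at 0 h, and at each time the genotypes overlapped. Its summits lay within 114 bp of each other over the 8 libraries. Folds of whole lists were lower at 72 h too, with a median of 7.03 and 8.05 in DKO and 7.89 and 9.06 in WT cells, against 10.4 and 10.3 in DKO and 10.1 and 9.78 in WT cells at 0 h.

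To place the site within each list, its fold was ranked among the 9591 regions found in all 8 libraries, a ranking added after the values were seen. It stood at the 36.3rd and 51.9th percentile in DKO cells at 72 h, the 11.6th and 38.1st in WT cells at 72 h, the 59.7th and 49.2nd in DKO cells at 0 h, and the 63.7th and 55.6th in WT cells at 0 h. In WT cells both libraries at 72 h were below both at 0 h, whereas in DKO cells the times overlapped. A site whose 72 h libraries were all below its 0 h libraries in both genotypes was found at 10.4% of shared regions, and the site at Myc was not among them.

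A pair of weaker sites followed within 3.73 kb. The site chr15:61816007-61817072, 3 kb before the Myc position, had a fold of 5.75 in DKO replicate 2 at 72 h and no peak in DKO replicate 1. Its fold was 5.01 and 10.6 in WT cells at 72 h, 5.04 and 6.40 in DKO cells at 0 h, and 7.69 and 7.81 in WT cells at 0 h. It was thus present in 7 of 8 libraries and missing from the shortest list. At 0 h both DKO values were below both WT values, and at 72 h the single DKO value lay between the WT values.

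The site chr15:61818049-61819140, 1 kb before the Myc position, alone among the 3 met the rule for a genotype difference. No DKO library at 72 h listed it, whereas WT cells at 72 h had a fold of 5.42 and 5.85, DKO cells at 0 h 6.66 and 8.22, and WT cells at 0 h 7.92 and 7.20. These values were low in every list, at or below the 35.9th percentile of peaks, and the genotypes overlapped at 0 h. Within a single time, 2 libraries against 2 cannot reach an exact p under 0.333. In DKO replicate 1 at 72 h, 1 peak number was missing in the long stretch around this site, and in replicate 2 none was. A lone peak 51 kb after Myc, chr15:61870335-61870678, was listed in WT replicate 2 at 72 h only, with a fold of 4.33.

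**Figure D3:**
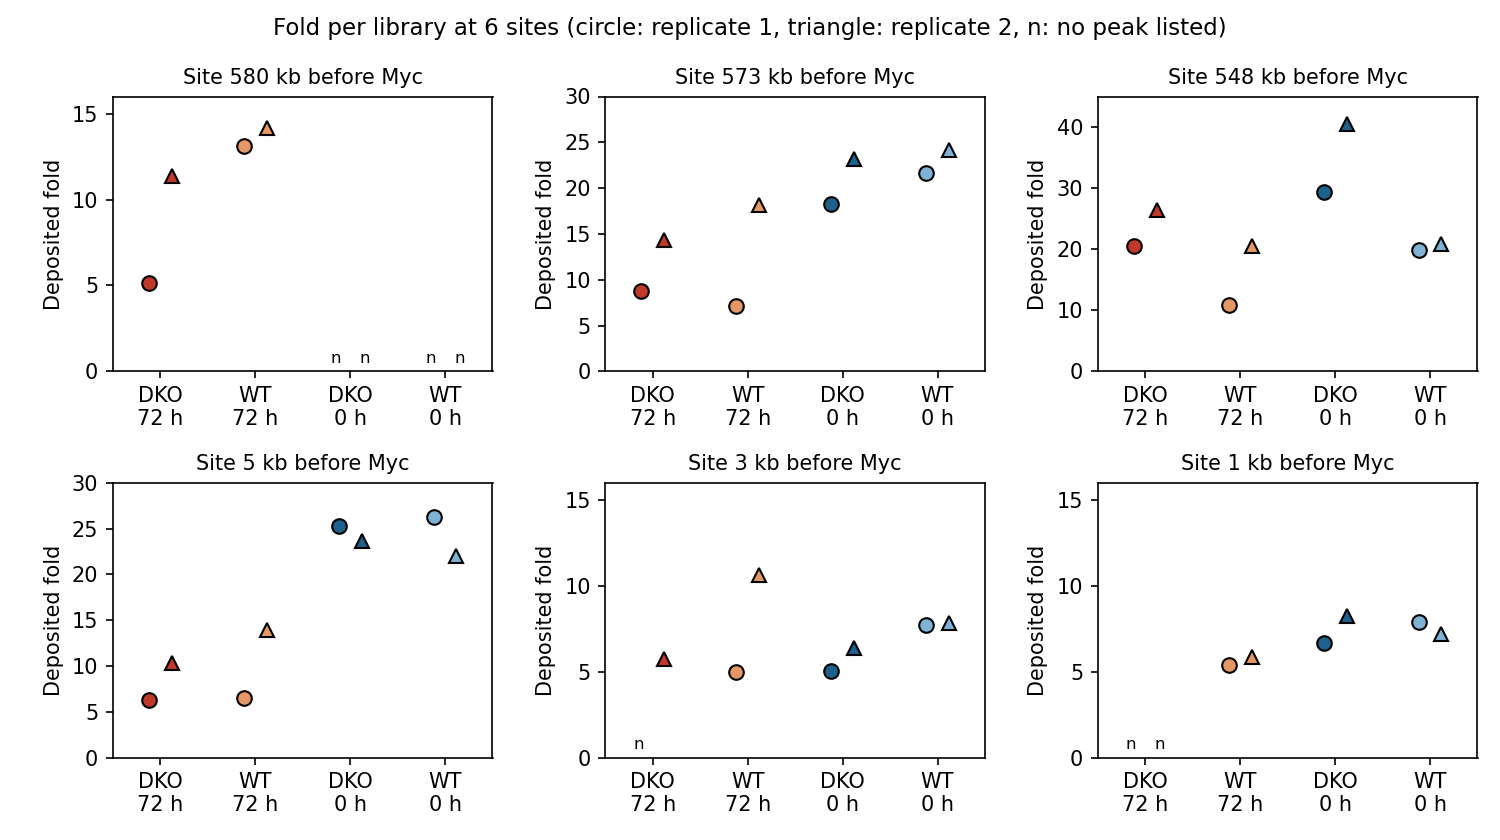
Deposited fold (y axis, linear, starting at 0) in each library at 6 sites before the Myc position, by group along the x axis; circles are replicate 1, triangles replicate 2, and n marks a library with no listed peak. The site 580 kb before Myc has values only at 72 h. At the site 5 kb before the rounded Myc position all 4 values at 72 h (6.34 to 13.9) are below all 4 at 0 h (22.1 to 26.3).

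The other 2 sites of all 8 libraries lay far before Myc, in the group of 9. At chr15:61271038-61272056, 548 kb before Myc, the fold was 20.5 and 26.4 in DKO cells at 72 h, 10.9 and 20.5 in WT cells at 72 h, 29.4 and 40.4 in DKO cells at 0 h, and 19.9 and 20.9 in WT cells at 0 h. DKO replicate 2 had the highest value at either time, and at 0 h both DKO values were above both WT values. It was the strongest peak of the window in all 4 DKO lists and in WT replicate 2 at 72 h.

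Ranked by fold among the 9591 shared regions, this site was at the 99.4th and 99.3rd percentile in DKO cells at 72 h and at the 57.7th and 73.7th in WT cells at 72 h. At 0 h it was at the 71.9th and 88.9th percentile in DKO cells and at the 39.2nd and 50.7th in WT cells. Both DKO libraries were above both WT libraries at each time, which held for 4.68% of shared regions (449 of 9591), while the reverse order, held by 4.96%, was seen at 0 of the 3 shared sites. Within each genotype both libraries at 72 h were also above both at 0 h, which held for 10.8%. The site was picked out for these places after they were seen, so no test is given.

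The ratio of its fold to that of the site 5 kb before Myc compares both sites inside a single list. This ratio was 3.23 and 2.56 in DKO cells at 72 h, 1.66 and 1.47 in WT cells at 72 h, 1.16 and 1.71 in DKO cells at 0 h, and 0.758 and 0.947 in WT cells at 0 h. In WT cells at 0 h the site near the gene had the higher fold in both libraries, and in the other 6 libraries the distant site did. Against the shared site 573 kb before Myc the ratio was 2.33 and 1.84 in DKO cells at 72 h, 1.52 and 1.13 in WT cells at 72 h, 1.61 and 1.74 in DKO cells at 0 h, and 0.922 and 0.865 in WT cells at 0 h. For both ratios, the DKO libraries were above the WT libraries at each time. Both ratios have as numerator the site picked out after its places were seen, so they restate that pick and add no separate evidence. The ratio of the site 573 kb before Myc to the site 5 kb before it leaves that site out. It was 1.39 and 1.39 in DKO and 1.09 and 1.31 in WT cells at 72 h. At 0 h the genotypes overlapped, with 0.721 and 0.982 in DKO and 0.822 and 1.10 in WT cells.

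The remaining shared site, chr15:61247004-61247989, was 573 kb before Myc. Its fold was 8.78 and 14.4 in DKO cells at 72 h, 7.14 and 18.2 in WT cells at 72 h, 18.3 and 23.2 in DKO cells at 0 h, and 21.6 and 24.2 in WT cells at 0 h. The WT libraries at 72 h lay on both sides of the DKO libraries, and the genotypes also overlapped at 0 h. Its place among shared regions was the 69.7th and 81.4th percentile in DKO cells at 72 h, the 17.1st and 63.2nd in WT cells at 72 h, the 32.3rd and 48.2nd in DKO cells at 0 h, and the 46.6th and 63.8th in WT cells at 0 h. By this measure both DKO libraries at 72 h were above both WT libraries here too, while the genotypes overlapped at 0 h. The WT replicates at 72 h were far apart at this site, with replicate 1 the lowest of all 8 libraries.

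**Figure D4:**
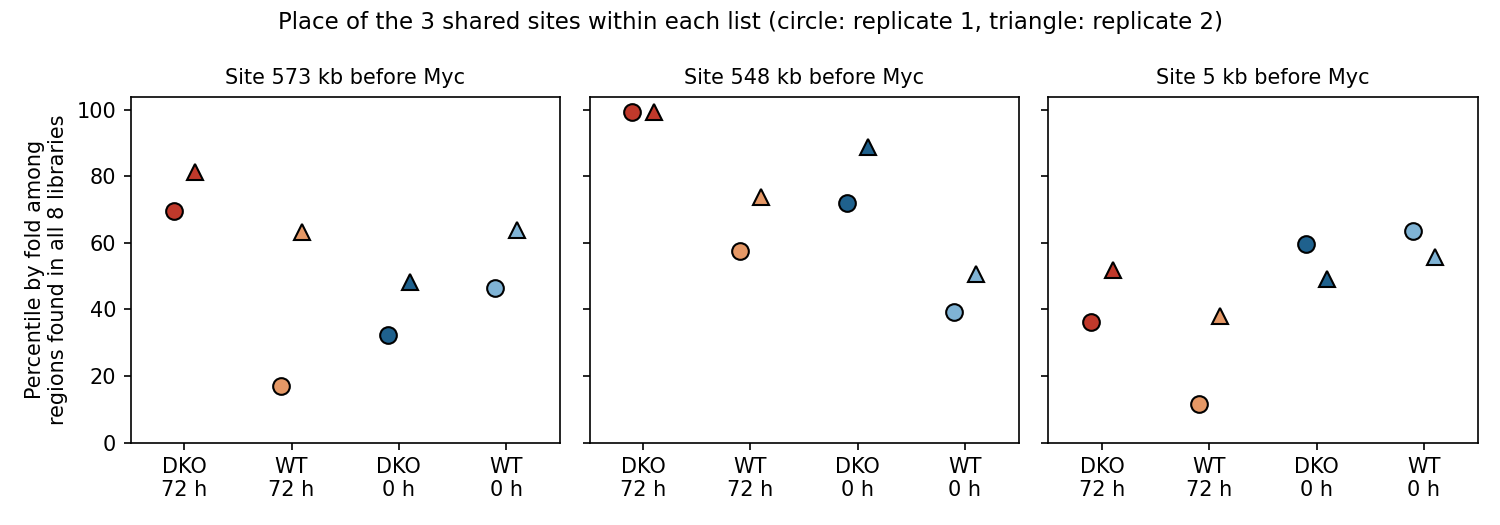
Percentile by fold (y axis) of the 3 sites found in all 8 libraries, each ranked within its own list among the 9591 regions found in all 8, by group along the x axis; circles are replicate 1 and triangles replicate 2. At the site 548 kb before Myc both DKO libraries are above both WT libraries at each time, and at the other 2 sites the groups overlap at 0 h or at 72 h.

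Sites of naive cells that were missing after culture were about as common here as elsewhere in WT cells. In WT cells 4 of the 27 regions (14.8%) had a peak in both 0 h libraries and in neither 72 h library, against 13.0% of all regions. In DKO cells 5 of the 27 (18.5%) were, against 29.1% of all regions. In DKO cells this count was 9 without replicate 2 at 72 h, and in WT cells it was 7 without replicate 2 at 0 h. Of the 10 regions found in all 4 libraries at 0 h, 3 and 7 had a peak in the DKO libraries at 72 h and 7 and 9 in the WT libraries at 72 h. Over the genome those shares were 40.9% and 62.7% in DKO and 65.2% and 86.9% in WT cells.

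The region chr15:61449897-61450635, 370 kb before Myc, was the sole region with a peak in all 4 libraries at 0 h and none at 72 h, as were 7.51% of all regions. Its fold at 0 h was 19.2 and 9.95 in DKO cells and 8.48 and 10.7 in WT cells, with DKO replicate 1 highest (Fisher's exact test, p = 0.0286, adjusted p = 0.376). In WT replicate 2 at 72 h, 1 peak number was missing in the long stretch around this region. An unlisted peak cannot be told apart from none there. Of the other 3 WT regions found only at 0 h, 2 were weaker. At 559 kb before Myc (chr15:61260527-61261007) the fold at 0 h was 7.09 in DKO replicate 2 and 6.38 and 5.21 in WT cells. At 176 kb after Myc (chr15:61996215-61996862) it was 4.99 in DKO replicate 2 and 5.77 and 6.77 in WT cells. The WT values were thus accompanied by a single DKO library at both sites. Around the site 176 kb after Myc, 1 peak number was missing in WT replicate 2 and in DKO replicate 1 at 72 h, and in DKO replicate 1 at 0 h.

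With the lists as deposited, the genotype differences in presence at 72 h were all on the side of WT cells, whose lists were longer. At 0 h 1 region (3.70%) was listed by the DKO pair and not by the WT pair, against 2.73% of all regions, and 1 by the WT pair and not by the DKO pair, against 4.88%. At 72 h 0 regions were found in DKO cells alone, against 0.0303% of all regions, and 4 (14.8%) in WT cells alone, against 6.37%. That count was 8 without DKO replicate 2 at 72 h, and with lists of equal length it was 0, with 1 region found in DKO cells alone. There was also 1 DKO-only region at 72 h without WT replicate 1. No region of the window had all 4 DKO and no WT libraries (0.0126% of all regions) or all 4 WT and no DKO libraries (0.498%), so the Fisher's exact test for genotype had 0 regions with an unadjusted p under 0.05 here and 202 in the genome, 0 of them after adjustment. Every peak of a DKO list in the window lay in a region that at least 1 WT library also held, whereas 9.07% of all regions had DKO peaks only, and 7 regions (25.9%) had WT peaks only, against 14.1% of all regions.

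The WT-only region at 0 h was chr15:61313561-61313867, 506 kb before Myc, with a fold of 9.43 and 10.4 in WT cells at 0 h and no peak in any other library. In WT replicate 2 at 72 h, 1 peak number was missing in the long stretch around this region. With a single library in place of both, the count of WT-only regions at 0 h was 3 without DKO replicate 2, 3 without WT replicate 1 and 2 without WT replicate 2. The DKO-only region at 0 h was chr15:62012863-62013446, 193 kb after Myc on the Pvt1 side. Its fold was 7.14 and 9.88 in WT cells at 72 h and 7.98 and 9.78 in DKO cells at 0 h, and DKO cells at 72 h and WT cells at 0 h had no peak there. It was therefore counted in all 4 comparisons, as a region of DKO cells at 0 h and of WT cells at 72 h. The count of DKO-only regions at 0 h was 2 without DKO replicate 1 and 2 without WT replicate 1.

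Its neighbour 3.60 kb away, chr15:62009251-62009841 (190 kb after Myc), had no peak in DKO cells at 72 h. The fold there was 6.39 and 9.11 in WT cells at 72 h, 10.5 and 10.9 in DKO cells at 0 h, and 8.41 and 11.1 in WT cells at 0 h, so the genotypes overlapped at 0 h. In DKO replicate 1 at 72 h, 1 peak number was missing in the long stretch around this site and the one 193 kb after Myc. In replicate 2 none was. In the same group the site 181 kb after Myc, chr15:62000692-62001942, which was added after its values were seen, was listed in 7 libraries at a fold of 6.17 to 11.2 and was missing from DKO replicate 1 at 72 h. Farther out, chr15:62644556-62645103 (825 kb after Myc) was listed at 0 h alone, with a fold of 4.46 and 7.57 in DKO cells and 5.71 in WT replicate 1. The lower DKO value was close to the listing limit. With a −log10 q of at least 5 or lists of equal length, this site no longer counted as found only at 0 h in DKO cells. Between its listed neighbours 1 peak number was missing in DKO replicate 1 at 72 h and 1 in WT replicate 2 at 0 h. The first region of the window, chr15:61231974-61232782 (588 kb before Myc), had a fold of 5.77 in DKO replicate 2 and 8.01 in WT replicate 2 at 72 h and of 8.07 to 9.24 in the 4 libraries at 0 h. The other regions, 425 and 477 kb after Myc, had folds of 5.19 to 8.56 in 6 libraries and of 5.36 and 6.38 in 1 library of each genotype at 0 h.

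Per library, the number of peaks in the window was 6 and 12 in DKO cells at 72 h, 15 and 17 in WT cells at 72 h, 13 and 15 in DKO cells at 0 h, and 16 and 15 in WT cells at 0 h. The mean was 12.5 ± 4.80 at 72 h and 14.8 ± 1.26 at 0 h (SD, n = 4 each), a difference of -2.25 (exact two-sided permutation test within genotype, 36 assignments, p = 0.444). By genotype the mean was 11.5 ± 3.87 in DKO and 15.8 ± 0.957 in WT cells (SD, n = 4 each), a difference of -4.25 (exact permutation test within time, p = 0.111) that was 0 with lists of equal length. DKO replicate 1 at 72 h had the fewest peaks, and without it these differences were -0.0833 and -2.42. The smallest p that this design allows is 0.0556.

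Relative to the length of each list, every library at 72 h had more peaks in the window than any at 0 h, at a p that did not pass 0.05. Its peaks per 1000 peaks of the list numbered 0.580 and 0.739 in DKO cells at 72 h, 0.865 and 0.638 in WT cells at 72 h, 0.429 and 0.478 in DKO cells at 0 h, and 0.491 and 0.484 in WT cells at 0 h. The groups by time did not overlap, with a mean of 0.706 ± 0.125 and 0.471 ± 0.0283 (SD, n = 4 each). The difference of 0.235 had p = 0.0556 in the exact two-sided permutation test within genotype, the smallest p possible. With the 10339 strongest peaks of each list, the window held 6 and 7 peaks in DKO and 6 and 7 in WT cells at 72 h, against 5 and 3 in DKO and 4 and 4 in WT cells at 0 h (exact permutation test, p = 0.0556). Between genotypes the difference per 1000 peaks was -0.0632, with means of 0.557 ± 0.137 in DKO and 0.620 ± 0.178 in WT cells (SD, n = 4 each; exact permutation test within time, p = 0.389). That difference changed with the setting. It was 0 with lists of equal length and 0.0186 without WT replicate 1 at 72 h, and it was -0.119 with a −log10 q of at least 5 and -0.124 without DKO replicate 2 at 72 h (exact permutation p = 0.0556 for each of the last 2). Without a single library it also moved to -0.0207 and -0.037 (DKO replicates 1 and 2 at 0 h) and to -0.106 and -0.108 (WT replicates 1 and 2 at 0 h).

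**Figure D5:**
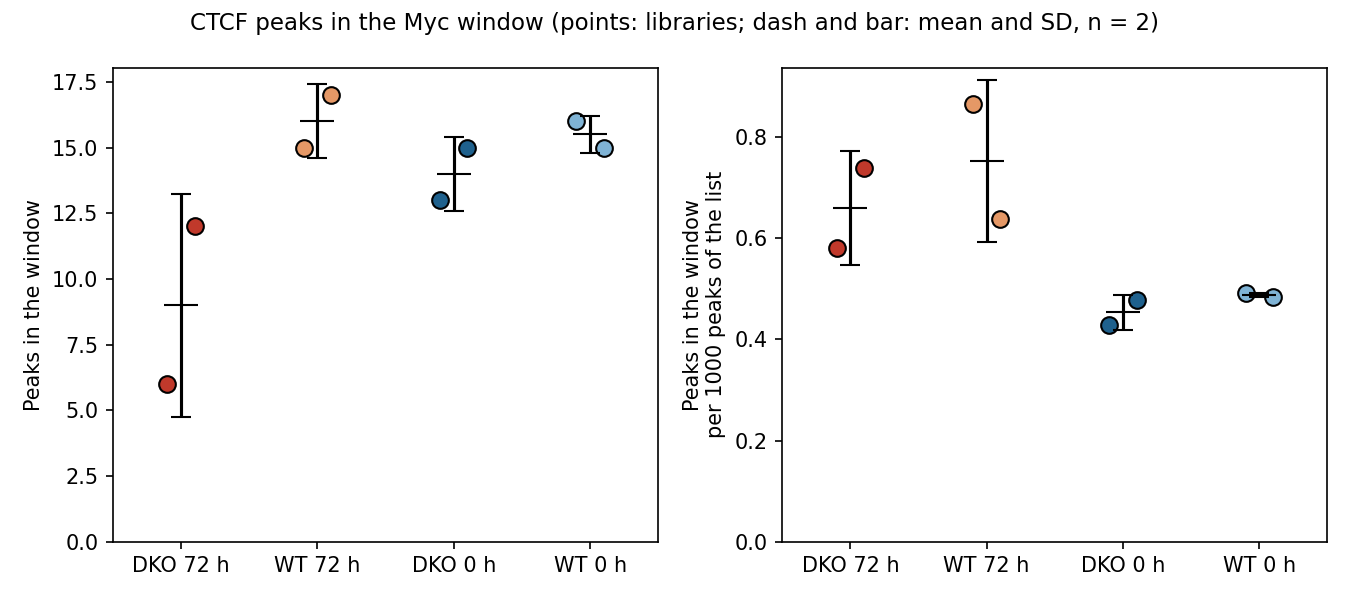
Number of CTCF peaks in the Myc window (left) and the same per 1000 peaks of the list (right) in each library, by group along the x axis; points are libraries, dashes group means and bars the SD (n = 2 per group). Counts are lowest in DKO cells at 72 h (6 and 12), while per 1000 peaks all 4 libraries at 72 h (0.580 to 0.865) are above all 4 at 0 h (0.429 to 0.491).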

How the data were processed

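CTCF occupancy was measured by CUT&RUN, and the deposited files were narrowPeak lists, 1 per library. The submitters' processing notes name mm9 as the build and, as tools, MACS2 2.1.1, Bowtie2 2.2.5 and FastQC. No source used here states which control or cut-offs the peak calls had. The deposited score column entered no comparison. The deposited fold, −log10 p and −log10 q values and the summit offset in bp come from the authors' peak caller and served to describe, rank or filter the peaks of 1 list; where folds of several lists are set side by side, their order is a description with no test. All 8 CTCF lists held only folds of 4 or more.

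Peaks on chromosomes 1 to 19 and X were merged at 1 bp overlap, leaving out 5 peaks on other chromosomes. Where a library had 2 peaks in a region, the higher fold was taken. A region was specific to a group if it was listed in both of that group's libraries and in neither library it was compared with. Presence was tested by Fisher's exact test over all regions with Benjamini-Hochberg adjustment, and counts per library by exact permutation (Python 3.11.15, NumPy 2.4.6, SciPy 1.17.1). On simulated lists the overlap step found 200 of 200 planted regions for 72 h against 0 h in WT cells, on 38999 regions. The planted peaks overlapped and met the rule by construction, so this checks the code and not the accuracy of the deposited calls.

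The window, the rules and the lists of sites were chosen with earlier results of these data known. Named were regions of all 8 libraries, regions specific in any contrast, the region nearest Myc and its neighbours, the first and last region and the 3 of highest median fold. Alternatives were a −log10 q of at least 5, 50% overlap of the shorter peak, lists of equal length, each library left out, and a block by replicate number.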

Additional observations from a re-analysis of the deposited data

How the results depend on the processing

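With lists cut to 10339 peaks each, 11 regions remained in the window. The difference in peak number between 72 h and 0 h then turned to 2.5, and Fisher's exact test for time had 1 region with an unadjusted p under 0.05 in place of 3. Both genotype differences were 0 at that length. Of the 11 regions, 0 were DKO only and 0 WT only at 0 h (2.68% and 3.05% of 15231 regions of the genome at that length), 1 was DKO only and 0 were WT only at 72 h (2.80% and 3.03%), 1 was limited to 72 h and 0 were limited to 0 h in WT cells (4.92% and 5.12%), and 0 were limited to 0 h in DKO cells (6.48%). Shorter lists leave fewer regions to count. With a −log10 q of at least 5, regions of DKO cells found only at 72 h numbered 1 in place of 3. The difference per 1000 peaks between DKO and WT cells was -0.119 (exact permutation p = 0.0556) in place of -0.0632. The other counts stayed within 1.5 times and the other differences kept their sign, but the regions behind the counts changed. Of the 22 group-specific calls at that setting, 19 were among the 24 calls of the lists as deposited. Calls were lost at the sites 559 and 318 kb before Myc and 825 and 836 kb after it. Calls were gained at the sites 588 and 577 kb before Myc and 425 kb after it. With 50% overlap the 12 region counts stayed within 1.5 times.

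Leaving out each library in turn gave differences between 72 h and 0 h of -3.75 to -0.0833 peaks and 0.182 to 0.277 per 1000 peaks, and between DKO and WT cells of -5.42 to -2.42 peaks and -0.124 to 0.0186 per 1000 peaks. The count of regions in all libraries was 3 to 5. DKO-only regions numbered 1 to 2 at 0 h and 0 to 1 at 72 h, and WT-only regions 1 to 3 at 0 h and 4 to 8 at 72 h. In WT cells 6 to 8 regions were found only at 72 h and 4 to 7 only at 0 h, and in DKO cells 3 to 4 and 5 to 9.

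With a replicate block, pairing libraries of the same number, the differences were the same by construction: -2.25 peaks for time (exact permutation p = 0.375) and -4.25 for genotype (p = 0.25), and 0.235 per 1000 peaks for time (p = 0.125, the smallest possible) and -0.0632 for genotype (p = 0.625). The deviations of same-numbered libraries correlated at 0.0147 to 0.0423 over 9591 regions, so the numbers were not taken as pairs. A list with few peaks limits what can be found, and an absent peak shows only that none was listed.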
